A study of Mus musculus with 5 samples.

Results

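Genes of the G2 phase and of mitosis were examined in CD8+ T cells sorted from mouse melanomas after blockade of PD-L1, a ligand that restrains T cells through PD-1. The set comprised 32 genes chosen by symbol, among 23337 genes listed in every library, and all 32 passed the filter on low counts that left 11299 genes for testing. The series held 2 libraries from mice given anti-PD-L1 and 3 libraries from mice given Control IgG, an anti-KLH rat IgG2b.

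All libraries came from C57BL/6J CD45.1 OT-I CD8+ T cells, whose transgenic receptor recognises an ovalbumin peptide. Cells of OT-I donors aged 6 to 12 weeks were activated with anti-CD3 and anti-CD28, grown in low-dose IL-2 until day 5 to 6, and injected into mice with tumors of the ovalbumin-making melanoma line B16-OVA. Each mouse received 200 µg of either antibody in each of 2 injections, 3 and 6 days after the T cells, and was killed on day 8 or when its tumor measured 1.2 cm. Live CD8+ CD45.1+ cells were sorted from pooled tumors of several mice of a group, so each library is a pool and a p-value reflects how much such pools vary, which may be partly technical. RNA of 5000 to 30000 sorted cells was amplified by a Smart-seq2 protocol, which marks neither strand nor molecule.

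Entry into mitosis is driven by CDK1 bound to B-type cyclins, with the Aurora and Polo-like kinases acting on centrosomes, spindle and chromosomes. The spindle checkpoint holds cells before anaphase until every kinetochore is attached, and the anaphase-promoting complex with CDC20 then marks cyclin B for degradation. Transcripts of these genes peak in G2 and mitosis, under the MuvB complex with B-MYB and FOXM1, through CHR elements and CCAAT boxes in their promoters. Activated CD8+ T cells divide rapidly, so these transcripts report on dividing cells. In sorted bulk cells, a larger share of dividing cells and more of the RNA per dividing cell cannot be told apart.

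The shared promoter grammar of the set was read from RefSeq promoters on GRCm38.p6, which span 250 bases before to 50 after the annotated start and were listed for 27 of the 32 genes. A CHR match (TTTGAA or TTCGAA) and a CCAAT match (CCAAT) were sought on both strands, and matches that overlap, as 2 CCAAT matches do in Ube2c, were counted apart. CHR letters were present in 20 of the 27 promoters, or 74.1%, against 19.4% of the 27025 genes in the promoter table and 14% of the 8141 tested genes with a listed promoter. CCAAT letters were present in 21 of 27, or 77.8%, against 37.9% of all listed and 39.7% of tested genes. Both occurred in 18 of 27, or 66.7%, against 7.7% of all listed and 6.1% of tested genes. A CHR match within 50 bases of the start, a window chosen after the positions were seen, was found in 19 of 27 promoters, or 70.4%, against 5.29% of all listed genes and 3.51% of the tested ones. Cyclin B1 (Ccnb1), Cks2 and Cenpe had CCAAT matches only, and Nusap1, Tacc3, Mad2l1 and Birc5 had neither in the listed promoter. The listed Mad2l1 promoter ends at base 66535270, before the gene start at 66535390 in the GENCODE annotation used for lengths. The last 25 promoter bases occurred in a GENCODE transcript of the gene for 25 of the 27. The promoters of 6 genes are printed, 5′ to 3′ along the gene, with both kinds of match in capitals. Ccnb2 and Cdc20 show a CHR near the start with CCAAT boxes close by, and Bub1, Cenpa and Mki67 belong to the genes described in most detail. Ccnb1 is shown as a promoter with CCAAT boxes and neither TTTGAA nor TTCGAA. Other spellings of the CHR element were not sought.
Ccnb2, chr9:70421505-70421804, minus strand: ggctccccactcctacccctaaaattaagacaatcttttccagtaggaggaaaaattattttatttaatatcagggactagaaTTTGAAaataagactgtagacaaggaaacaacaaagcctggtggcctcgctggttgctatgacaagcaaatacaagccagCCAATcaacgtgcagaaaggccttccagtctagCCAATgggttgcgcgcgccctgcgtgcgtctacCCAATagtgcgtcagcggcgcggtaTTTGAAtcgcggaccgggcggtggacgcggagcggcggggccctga
Cdc20, chr4:118437294-118437593, minus strand: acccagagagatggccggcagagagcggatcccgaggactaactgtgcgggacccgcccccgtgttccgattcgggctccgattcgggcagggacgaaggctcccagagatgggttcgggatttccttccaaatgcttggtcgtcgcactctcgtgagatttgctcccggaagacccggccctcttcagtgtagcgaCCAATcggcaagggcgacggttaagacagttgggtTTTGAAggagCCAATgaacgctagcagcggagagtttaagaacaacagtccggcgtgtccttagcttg
Bub1, chr2:127831810-127832109, minus strand: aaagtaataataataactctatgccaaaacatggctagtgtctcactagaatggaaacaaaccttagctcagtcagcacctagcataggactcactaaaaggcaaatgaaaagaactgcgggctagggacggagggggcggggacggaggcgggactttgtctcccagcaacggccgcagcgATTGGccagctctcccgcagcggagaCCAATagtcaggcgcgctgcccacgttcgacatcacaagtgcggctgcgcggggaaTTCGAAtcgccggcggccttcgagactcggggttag
Cenpa, chr5:30666636-30666935, plus strand: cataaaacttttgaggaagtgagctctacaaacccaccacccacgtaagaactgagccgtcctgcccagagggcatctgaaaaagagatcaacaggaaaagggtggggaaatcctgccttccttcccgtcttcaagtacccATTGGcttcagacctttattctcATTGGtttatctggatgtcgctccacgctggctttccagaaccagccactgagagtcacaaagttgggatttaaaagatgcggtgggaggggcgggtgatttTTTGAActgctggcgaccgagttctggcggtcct
Mki67, chr7:135716330-135716629, minus strand: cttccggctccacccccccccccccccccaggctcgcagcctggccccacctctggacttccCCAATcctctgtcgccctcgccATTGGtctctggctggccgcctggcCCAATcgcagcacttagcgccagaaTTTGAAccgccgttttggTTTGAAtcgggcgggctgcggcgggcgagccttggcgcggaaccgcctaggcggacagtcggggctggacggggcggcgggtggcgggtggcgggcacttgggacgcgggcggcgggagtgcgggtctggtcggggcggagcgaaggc
Ccnb1, chr13:100786437-100786736, minus strand: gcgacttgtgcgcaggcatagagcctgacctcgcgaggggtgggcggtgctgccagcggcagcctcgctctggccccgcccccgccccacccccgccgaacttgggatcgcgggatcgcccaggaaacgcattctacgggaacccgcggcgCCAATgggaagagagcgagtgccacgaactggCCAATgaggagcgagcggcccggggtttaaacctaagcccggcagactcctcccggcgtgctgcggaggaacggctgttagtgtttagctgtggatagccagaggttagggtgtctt
The Bub1 promoter carries the TTCGAA form, and in Mki67 both CHR matches lie downstream of the 3 CCAAT boxes but outside the window of 50 bases around the start. A match of letters is a description and not a measured site.

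**Figure D1:**
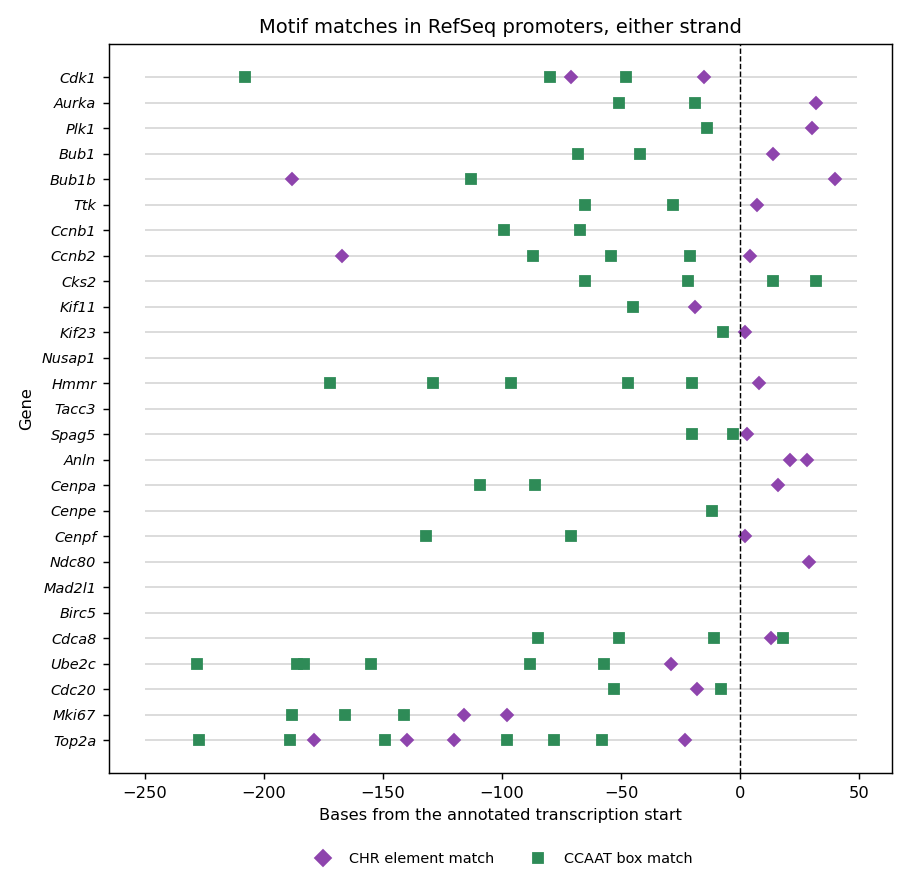
Positions of CHR (diamonds) and CCAAT (squares) matches on either strand in the 27 promoters listed by RefSeq, in bases from the annotated transcription start, 1 gene per line. In 19 of the 27 genes a CHR match lies wholly within 50 bases of the start.

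The sorted cells expressed the T cell markers they were chosen for. The 9 T cell genes summed to 10616 and 9449 CPM (the reads of a gene relative to all assigned reads of its library) in the anti-PD-L1 libraries and to 8865 to 9495 CPM in the Control IgG libraries. Libraries held 11580960 and 12830485 assigned counts after anti-PD-L1 and 9985943 to 12395682 after Control IgG. Both libraries numbered 1 stood apart. Anti-PD-L1 replicate 1 had 11977 genes with a count and 7.46% of reads outside annotated genes, and Control IgG replicate 1 had 11696 genes and 9.02%. The other 3 had 13564 to 13801 genes and 11.2% to 15.2%. Results are therefore also given within replicate numbers, although the labels do not say that a number marks a batch. Fold changes are log2 values of anti-PD-L1 relative to Control IgG from edgeR, with levels in CPM scaled by TMM, a method that aligns libraries on the bulk of their genes.

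No gene of the set passed the test between anti-PD-L1 and Control IgG. In edgeR's quasi-likelihood test 0 of the 32 genes had an adjusted p under 0.05, against 0% of the 11299 genes tested, and at an unadjusted p under 0.05 there were 0 of 32, against 2.13% of all genes. DESeq2 and limma-voom also called 0 of the 32, with 0 at an unadjusted p under 0.05 in each. Over all genes limma-voom called 0 of 11299, while DESeq2, run without the filter on low counts, called 4 of 15088. Without that filter edgeR called 5 of 15088. The fold change lay above 0 for 20 genes, where 48.1% of all genes did, and below 0 for 12, where 51.9% did. Its median was 0.12, and that of all genes -0.02. Cenpa was the 1 gene whose anti-PD-L1 values both exceeded every control value, against 7.74% of all genes, and for 0 genes were both under every control value, against 9.58%. The estimates were imprecise, with standard errors of 0.24 to 0.89 on the log2 scale. The median turned on which anti-PD-L1 pool was present, at -0.41 without replicate 1, 0.48 without replicate 2, and -0.42 without both libraries numbered 1. Each of these fits holds 1 anti-PD-L1 library, so the spread comes from the controls alone and the lone library is assumed to vary like them.

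What separated the libraries was the position of the 2 anti-PD-L1 pools on either side of the controls. Anti-PD-L1 replicate 1 was the highest of the 5 libraries for 24 of the 32 genes, against 24.3% of all genes tested. Anti-PD-L1 replicate 2 was the lowest for 19 of the 32, against 14.1% of all genes. Both held at once for 18 genes, against 4.5% of all genes. Summed over the set, the level was 4917 and 2991 CPM in anti-PD-L1 replicates 1 and 2, against 3198, 3824 and 3984 CPM in Control IgG replicates 1, 2 and 3. The median gene lay 0.47 above the control mean in log2 CPM in the first anti-PD-L1 pool and -0.41 from it in the second, against -0.10, -0.04 and 0.15 in the 3 controls. The sum of 12 myeloid markers was also highest in anti-PD-L1 replicate 1, at 2733 CPM. It was 1538 CPM in replicate 2 and 1557 to 1631 CPM in the controls. Most of that sum was Ly6c2, at 1379 to 2650 CPM, which activated CD8+ T cells also express. Its highest level was in anti-PD-L1 replicate 1, and without Ly6c2 that library did not have the highest myeloid sum. S100a9 was at 0 in every library, and 10 or 11 of the 12 genes had a count. Their part in the levels of the mitotic genes was not tested.

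**Figure D2:**
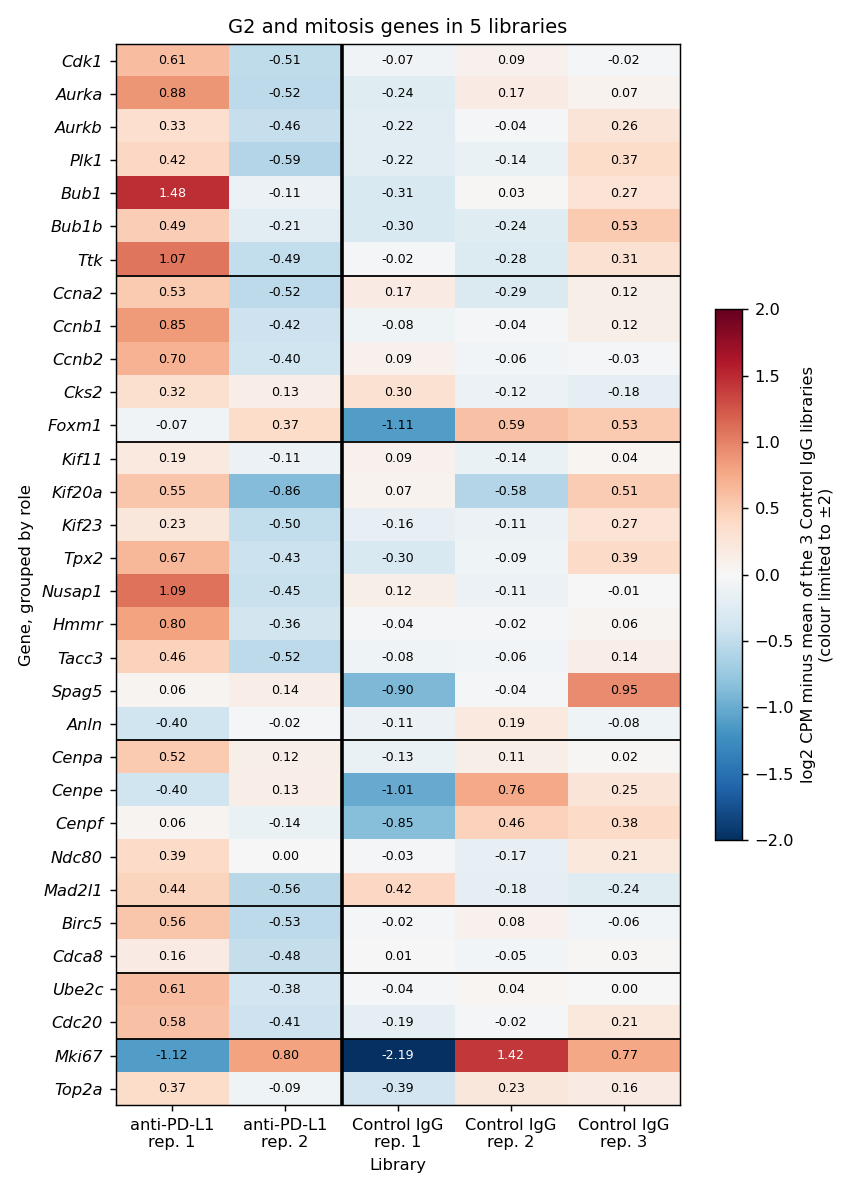
Log2 CPM of each of the 32 genes in each library, minus the mean of the 3 Control IgG libraries, with genes grouped by role in rows and libraries in columns. Anti-PD-L1 replicate 1 is positive for most rows and replicate 2 negative, with medians of 0.47 and -0.41.

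Among the mitotic kinases, Cdk1, the kinase that starts mitosis, stood at 232 and 107 CPM in the anti-PD-L1 libraries, against 144, 161 and 150 CPM in the Control IgG libraries. The 3 controls lay close together, with one anti-PD-L1 pool above them and the other below. Its mean was 169 ± 88.6 CPM (SD, n = 2) after anti-PD-L1 and 152 ± 8.55 CPM (SD, n = 3) after Control IgG, with a log2 fold change of 0.16 ± 0.33 (SE). Bub1, a checkpoint kinase at kinetochores, had the largest fold change of the set. It stood at 102 and 33.7 CPM after anti-PD-L1, against 29.3, 37.2 and 43.9 CPM after Control IgG. Replicate 1 alone was high and replicate 2 lay among the controls, and the fold change was 0.88 ± 0.44 (SE) at an edgeR adjusted p of 0.9999 and an unadjusted p of 0.0812. Without anti-PD-L1 replicate 1 the fold change was -0.13, and without replicate 2 it was 1.50. On GRCm38 the gene lies on the minus strand of chromosome 2, from 127801122 to 127831865.

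Aurora A (Aurka), which matures centrosomes, had 105 and 39.6 CPM after anti-PD-L1, against 48.2, 64.1 and 59.7 CPM after Control IgG. Ttk, the kinase MPS1 that sets off the checkpoint, had 37.6 and 12.7 CPM, against 17.6, 14.7 and 22.2 CPM. For both genes the anti-PD-L1 pools were the highest and the lowest of the 5 libraries, and the log2 fold changes were 0.33 ± 0.40 (SE) for Aurka and 0.47 ± 0.47 (SE) for Ttk. Plk1, the Polo-like kinase, had 139 and 68.7 CPM after anti-PD-L1, against 88.5, 93.7 and 133 CPM after Control IgG. Aurora B (Aurkb), the kinase of the chromosomal passenger complex, had 147 and 84.8 CPM, against 99.6, 114 and 139 CPM. Control IgG replicate 3 nearly reached the high anti-PD-L1 pool for both, and their log2 fold changes were -0.02 ± 0.35 (SE) for Plk1 and -0.02 ± 0.30 (SE) for Aurkb. Bub1b, which encodes the checkpoint protein BUBR1, had 98.2 and 60.5 CPM after anti-PD-L1, against 57.1, 59.5 and 101 CPM after Control IgG. It was the 1 kinase gene whose highest library was a control, and its fold change was 0.13 ± 0.35 (SE). Over the 7 kinases the median fold change was 0.16, and the median gene lay at 0.61 and -0.49 in the anti-PD-L1 pools relative to the control mean, against -0.22, -0.04 and 0.27 in the controls.

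The 3 cyclins had the same extremes as Cdk1. Cyclin B1 (Ccnb1) stood at 244 and 101 CPM after anti-PD-L1, against 128, 132 and 147 CPM after Control IgG, with means of 173 ± 101 CPM (SD, n = 2) and 136 ± 9.83 CPM (SD, n = 3). Cyclin B2 (Ccnb2) stood at 273 and 127 CPM, against 179, 161 and 165 CPM, and cyclin A2 (Ccna2), which acts in S phase and G2, at 305 and 147 CPM, against 236, 172 and 230 CPM. The anti-PD-L1 pools bracketed the controls in each, and the log2 fold changes were 0.35 ± 0.36, 0.25 ± 0.33 and 0.09 ± 0.34 (SE). A part of the Ccnb1 reads may be shared with pseudogenes, since 42.1% of the 50-base stretches of its longest transcript occur in other annotated transcripts, and exons of Exosc9 on the opposite strand overlap 12.5% of the exon bases of Ccna2 in a library that does not mark strand.

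Cks2, a small CDK-binding subunit, did not share the split. It stood at 76.0 and 66.7 CPM after anti-PD-L1, against 74.9, 55.9 and 53.8 CPM after Control IgG, so both pools lay in the upper part of the range, and the fold change was 0.21 ± 0.26 (SE). In Cks2, 29.7% of the 50-base stretches are shared with other transcripts. Foxm1, the transcription factor that drives the G2 program, was among the lowest of the set per length. It had 18.9 and 25.8 CPM after anti-PD-L1, against 9.12, 30.0 and 28.8 CPM after Control IgG, and was lowest in both libraries numbered 1, with a fold change of -0.02 ± 0.51 (SE).

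Of 9 spindle and cytokinesis genes, 5 shared these extremes. Tpx2, which activates Aurora A on the spindle, had 179 and 83.8 CPM after anti-PD-L1, against 91.7, 106 and 147 CPM after Control IgG. Nusap1, a microtubule bundler, had 160 and 54.8 CPM, against 81.8, 69.4 and 74.5 CPM, and a fold change of 0.51 ± 0.41 (SE). In both, the anti-PD-L1 pools were the highest and the lowest library, and the same held for Hmmr, Tacc3 and Kif20a. Hmmr, a spindle assembly protein, had 113 and 50.4 CPM after anti-PD-L1, against 63.0, 63.7 and 67.8 CPM after Control IgG, the narrowest relative control range of these 5. Tacc3, which links microtubules in spindle fibres, had 215 and 109 CPM after anti-PD-L1, against 147, 150 and 171 CPM after Control IgG. The kinesin Kif20a, which acts in cytokinesis, had 94.2 and 35.2 CPM after anti-PD-L1, against 67.1, 42.9 and 91.5 CPM after Control IgG, and so varied among the controls themselves. The fold changes were 0.19 ± 0.36 (SE) for Tpx2, 0.33 ± 0.34 (SE) for Hmmr, 0.05 ± 0.31 (SE) for Tacc3 and -0.06 ± 0.46 (SE) for Kif20a. Exons of Cdc23 on the opposite strand overlap 29.3% of the exon bases of Kif20a.

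Kif11, the kinesin that pushes spindle poles apart, varied least of the 32 genes. It had 130 and 105 CPM after anti-PD-L1, against 121, 104 and 117 CPM after Control IgG, and its highest library was 1.25 times its lowest. Anillin (Anln), a scaffold of the contractile ring, had 15.0 and 19.6 CPM after anti-PD-L1, against 18.4, 22.7 and 18.7 CPM, and was the one gene lower in anti-PD-L1 replicate 1 than in Control IgG replicate 1. Kif23, a kinesin of the central spindle, had 52.5 and 31.6 CPM, against 40.1, 41.5 and 54.1 CPM, and anti-PD-L1 replicate 2 was its lowest library. Spag5, a protein of spindle and kinetochores, had 36.0 and 38.0 CPM after anti-PD-L1, inside the wide control range of 18.3, 33.4 and 66.6 CPM. Fold changes were 0.04 ± 0.24 (SE) for Kif11, -0.20 ± 0.33 (SE) for Anln, -0.11 ± 0.32 (SE) for Kif23 and -0.09 ± 0.49 (SE) for Spag5. The median fold change of the 9 genes was 0.04.

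Among the 5 kinetochore genes, Cenpa, the histone H3 variant that marks centromeres, stood at 308 and 233 CPM after anti-PD-L1, against 197, 231 and 218 CPM after Control IgG. Replicate 2 exceeded the highest control by a small margin, a non-overlap in this direction that 7.74% of all genes had, and the fold change was 0.33 ± 0.24 (SE) at an edgeR adjusted p of 0.9999 and an unadjusted p of 0.207. The gene lies on the plus strand of chromosome 5, from 30666777 to 30674830. Ndc80, the microtubule-binding subunit of the outer kinetochore, had 69.5 and 52.8 CPM after anti-PD-L1, against 51.7, 46.9 and 61.0 CPM, and a fold change of 0.20 ± 0.27 (SE). Mad2l1, the checkpoint protein MAD2, had 176 and 88.3 CPM, against 173, 115 and 110 CPM, and here Control IgG replicate 1 was almost level with anti-PD-L1 replicate 1. Its fold change was -0.01 ± 0.35 (SE). The kinetochore motor Cenpe and the kinetochore protein Cenpf followed another order, given with the long genes.

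The chromosomal passenger subunits and the degradation genes repeated the pattern of the kinases. Birc5, which encodes survivin, had 305 and 143 CPM after anti-PD-L1, against 204, 219 and 199 CPM after Control IgG. Cdca8, which encodes borealin, had 163 and 105 CPM, against 147, 141 and 149 CPM. Both had controls close together and the anti-PD-L1 pools on either side, with fold changes of 0.11 ± 0.33 (SE) for Birc5 and -0.12 ± 0.26 (SE) for Cdca8. Cdc20, the activator of the anaphase-promoting complex, had 274 and 138 CPM after anti-PD-L1, against 161, 181 and 213 CPM after Control IgG. Ube2c, the ubiquitin-conjugating enzyme of that complex, had 228 and 115 CPM, against 145, 153 and 150 CPM. Their fold changes were 0.16 ± 0.32 (SE) for Cdc20 and 0.20 ± 0.31 (SE) for Ube2c, within 1 SE of 0 like those of the 2 passenger subunits. Differences between roles were not tested. Exons of Tnnc2 on the opposite strand overlap 22.8% of the exon bases of Ube2c, and 11.4% of the 50-base stretches of Cdc20 are shared with other transcripts.

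**Figure D3:**
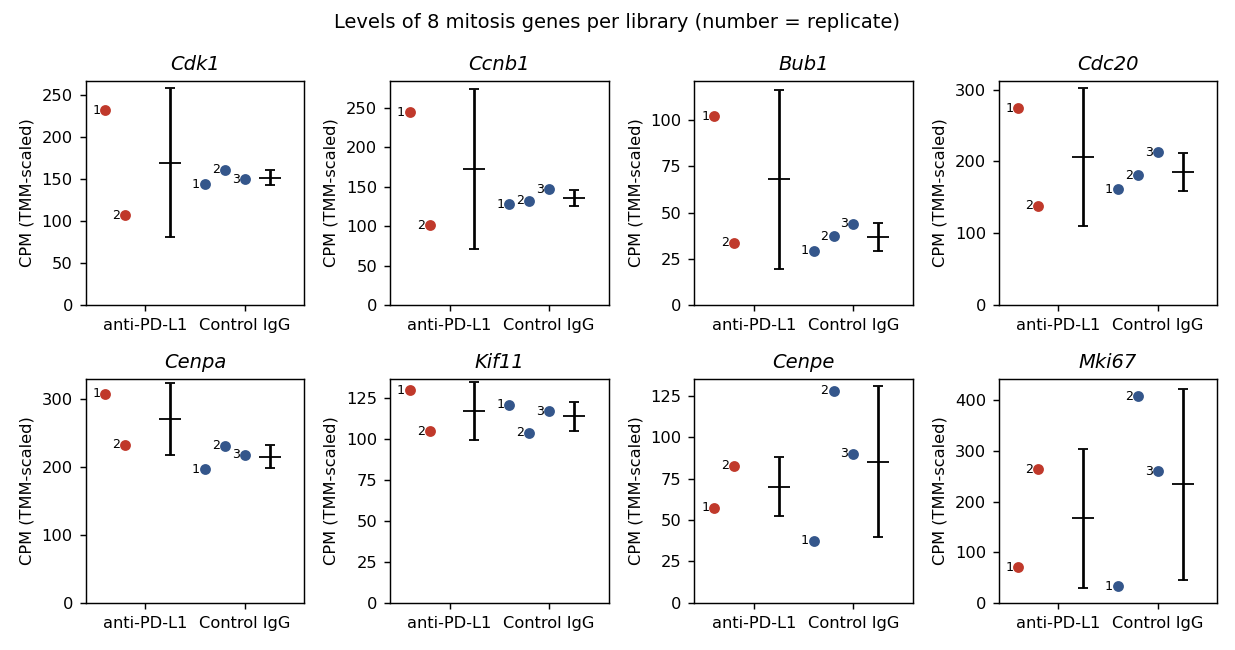
TMM-scaled CPM of 8 genes, with anti-PD-L1 libraries (red, n = 2) left of Control IgG libraries (blue, n = 3), replicate numbers beside the points, and the mean with its SD as a bar. For Cdk1, Ccnb1 and Cdc20 the anti-PD-L1 points lie above and below all control points, while Mki67 is lowest in both libraries numbered 1, at 70.0 and 33.2 CPM.

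The same split appeared as opposite differences within replicate numbers. Between the libraries numbered 1, anti-PD-L1 was above Control IgG for 31 of the 32 genes, where 48.3% of all genes were above, with a median difference of 0.65 in log2 CPM against -0.01 over all genes. Bub1 had the largest difference, at 1.79, followed by Aurka at 1.12, Ttk at 1.09, Mki67 at 1.07 and Foxm1 at 1.04. Anti-PD-L1 replicate 2 lay below the mean of Control IgG replicates 2 and 3 for 30 of the 32 genes, where 48.6% of all genes lay below, with a median difference of -0.39 against 0.01. Kif20a had the largest difference, at -0.83, followed by Plk1 at -0.70 and Aurka at -0.64, and Cks2 at 0.28 and Cenpa at 0.05 were the exceptions. Each of these differences rests on a single anti-PD-L1 library and has no replicate test.

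**Figure D4:**
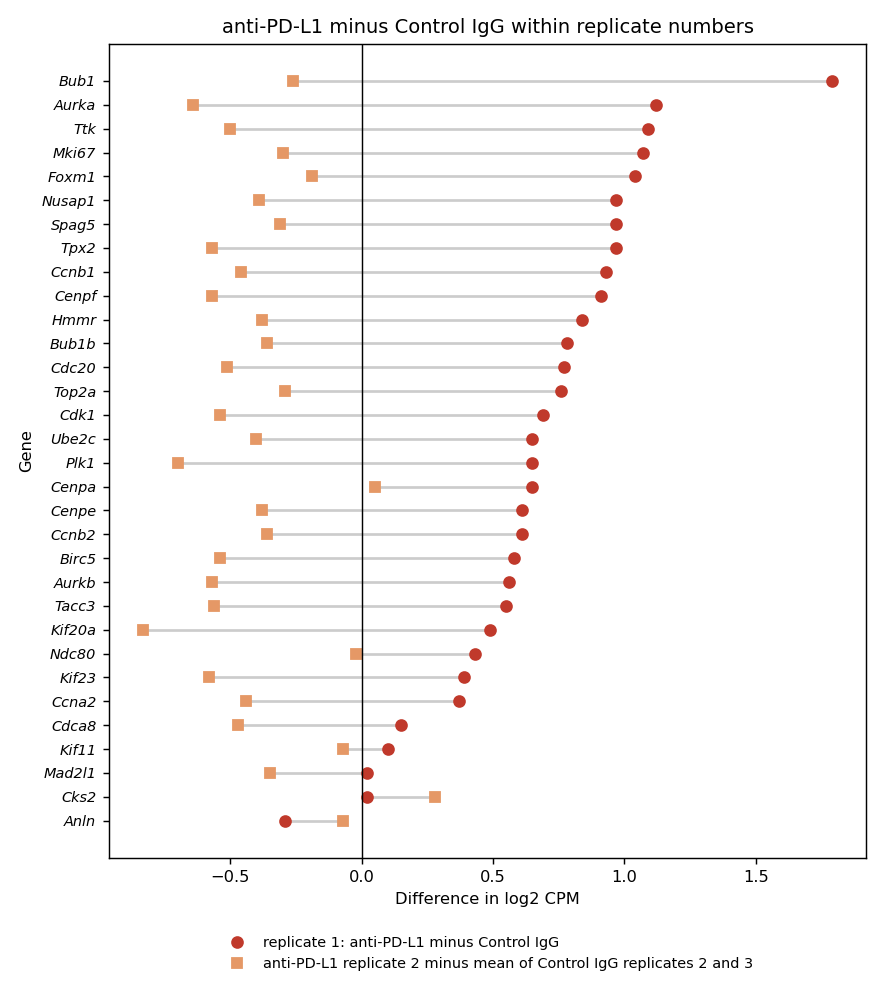
Difference in log2 CPM, anti-PD-L1 minus Control IgG, for each of the 32 genes, between the libraries numbered 1 (circles) and between anti-PD-L1 replicate 2 and the mean of Control IgG replicates 2 and 3 (squares). Circles lie right of 0 for 31 genes and squares left of 0 for 30.

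Several long genes were low in the libraries numbered 1. Mki67, which encodes the Ki-67 protein that coats mitotic chromosomes, stood at 70.0 and 264 CPM after anti-PD-L1, against 33.2, 408 and 260 CPM after Control IgG. Both libraries numbered 1 were far below the other 3, in each treatment group, and the groups overlapped. Control IgG replicate 1 had 371 Mki67 counts, and counting error alone gives it an exact 95% Poisson interval of 29.9 to 36.7 CPM. The mean of the other controls was 10.1 times its level, and anti-PD-L1 replicate 2 was 3.78 times anti-PD-L1 replicate 1. The fold change by treatment was -0.48 ± 0.89 (SE), with means of 167 ± 138 CPM (SD, n = 2) after anti-PD-L1 and 234 ± 189 CPM (SD, n = 3) after Control IgG. Its sign turned on single libraries, at 0.18 without anti-PD-L1 replicate 1 and 0.19 without Control IgG replicate 2, against -1.71 without anti-PD-L1 replicate 2. The gene lies on the minus strand of chromosome 7, from 135689784 to 135716361, with a longest coding transcript of 10061 bases.

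Cenpe, with a transcript of 7910 bases, had 57.4 and 82.6 CPM after anti-PD-L1, against 37.6, 128 and 89.8 CPM after Control IgG, and was likewise lowest in both libraries numbered 1. Cenpf, at 11130 bases the longest, had 58.1 and 50.5 CPM after anti-PD-L1, against 30.9, 77.1 and 72.8 CPM. Control IgG replicate 1 was its lowest library, and the anti-PD-L1 pools lay close together. Top2a, topoisomerase II alpha, which untangles sister chromatids and has a transcript of 5221 bases, stood at 436 and 317 CPM after anti-PD-L1, against 258, 395 and 378 CPM after Control IgG. Its level was lowest in Control IgG replicate 1 and highest in anti-PD-L1 replicate 1, where Mki67 was low. Fold changes were -0.28 ± 0.47 (SE) for Cenpe, -0.15 ± 0.40 (SE) for Cenpf and 0.13 ± 0.28 (SE) for Top2a. Mad2l1, whose longest transcript of 7557 bases holds a short coding sequence, was high in both libraries numbered 1.

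Relative to anti-PD-L1 replicate 2, anti-PD-L1 replicate 1 had a median difference of 0.25 in log2 CPM over the 10 genes of the set with transcripts of at least 4000 bases and of 1.00 over the 22 shorter ones, a gap of -0.75. Over all tested genes with a length the gap was -0.38, from medians of -0.31 for 3555 long and 0.07 for 7210 shorter genes. In the controls, replicate 1 minus the mean of replicates 2 and 3 had a median of -0.51 over the long and -0.09 over the shorter genes of the set, a gap of -0.42, where all genes gave -0.54. The gap between length classes was thus present over all genes tested. In the set it depended on how length was defined, at -0.29 in anti-PD-L1 and -0.03 in Control IgG when all annotated exons were counted. Among genes with transcripts of 6000 bases or more, 58.9% of all genes tested were lower in replicate 1 in both groups, against 17.8% of genes under 2000 bases. In the set this held for 5 of the 32 genes, Foxm1, Spag5, Anln, Cenpe and Mki67, against 33.7% of all genes. Rank correlations with transcript length over the 32 genes were -0.29 in the anti-PD-L1 pools and -0.36 in the controls, against -0.23 and -0.32 over 10765 genes. With coding length they were -0.32 and -0.60 over the 32 genes, against -0.26 and -0.39. These are descriptions across genes of the same libraries, and genes are not independent replicates.

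**Figure D5:**
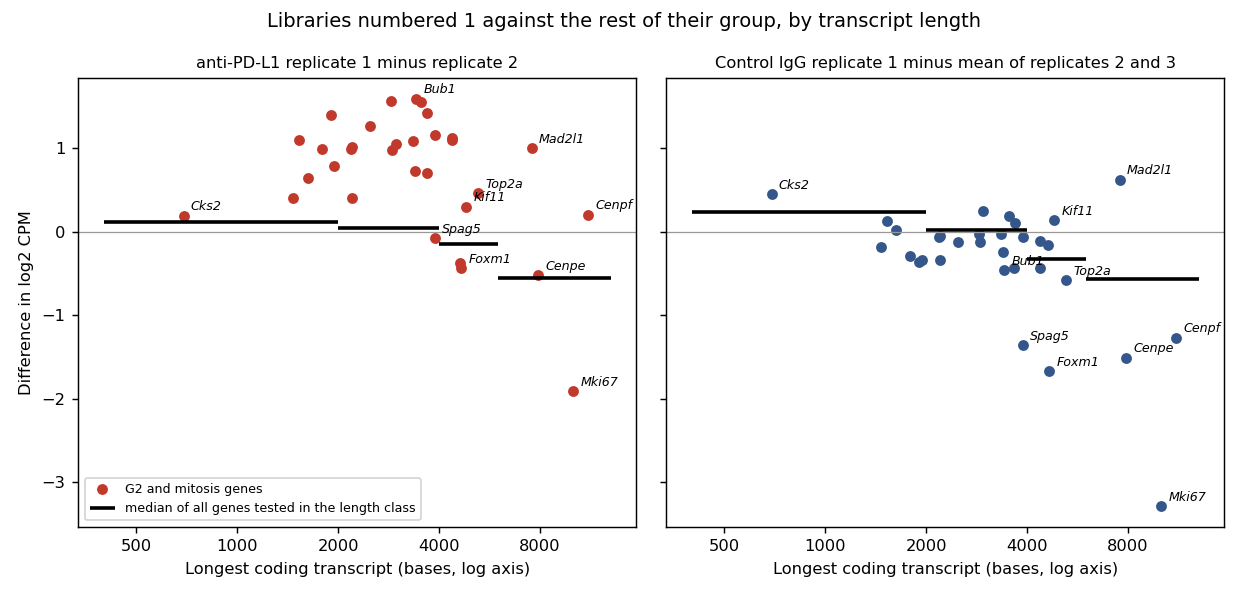
Difference in log2 CPM between the library numbered 1 and the rest of its group, against the length of the longest coding transcript (log axis), for anti-PD-L1 (left) and Control IgG (right); points are the 32 genes, and black bars are medians of all tested genes per length class. The bars run from 0.11 to -0.56 on the left and from 0.24 to -0.57 on the right, and Mki67 lies below them in both panels, at -1.91 and -3.29.

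Summed melanoma markers had the same order of libraries as Mki67. The 9 melanoma genes summed to 50.3 and 131 CPM in the anti-PD-L1 libraries and to 6.94, 384 and 119 CPM in the Control IgG libraries, with 8 and 8 of 9 detected after anti-PD-L1 and 6, 9 and 9 after Control IgG. Pmel and Dct, the most abundant of them, peaked in Control IgG replicate 2 with 112 and 80.7 CPM. From the highest, the order was Control IgG replicate 2, anti-PD-L1 replicate 2, Control IgG replicate 3, anti-PD-L1 replicate 1 and Control IgG replicate 1 for both, and the part of tumor cells in the Mki67 level was not tested. The summed level of the 32 genes had another order, with anti-PD-L1 replicate 1 at the top. Among other cell types, natural killer genes summed to 8.98 to 32.6 CPM over the 5 libraries. Eomes was the highest of them, at 6.04 to 29.6 CPM, and Klra4 and Klra8 were at 0. Fibroblast genes summed to at most 1.69 CPM with Col3a1 and Dcn at 0, and erythroid genes to at most 2.96 CPM. Dendritic cell genes summed to 113 and 236 CPM after anti-PD-L1 and 139 to 331 CPM after Control IgG. The CD4 and regulatory T cell genes summed to 187 and 426 CPM after anti-PD-L1 and 230 to 311 CPM after Control IgG. The highest of these were Ctla4, at 118 to 305 CPM over the 5 libraries, and Il2ra, at 56.7 to 101 CPM. The part of CD4+ cells in that sum was not tested. Endothelial genes summed to 28.5 to 57.6 CPM, nearly all of it Pecam1, with Cdh5, Kdr and Tie1 at 0.

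Other genes of the G2 and mitosis pathway, outside the set, were read from 6 lists of 148 genes, of which 141 were tested, and the lists, like the set, were chosen with results of these data known. None of the 141 passed in edgeR, in either direction, and 0 had an unadjusted p under 0.05. The fold change lay above 0 for 82 and below 0 for 59, with a median of 0.05. Within number 1, 94 of the 141 were higher after anti-PD-L1, and within the other numbers 99 were lower, against 48.3% and 48.6% of all genes. Relative to the control mean in log2 CPM, kinesins and other spindle genes had medians of 0.43 and -0.17 in the anti-PD-L1 pools over 33 genes. Kinetochore genes had medians of 0.32 and -0.22 over 35 genes, other mitotic kinases and CDK1 regulators 0.33 and -0.13 over 19, and genes of the MuvB, B-MYB and E2F complexes 0.37 and 0.13 over 15. Subunits and partners of the anaphase-promoting complex, most of which are not confined to G2, had 0.04 and -0.07 over 19 genes, and condensin, cohesin and separase genes 0.12 and -0.05 over 20.

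Both anti-PD-L1 pools lay above all controls for 5 of the 141 and below all controls for 8, a smaller share than the 7.74% and 9.58% of all genes. The 2 genes with the smallest p in each list lay on both sides. Cdkn3, a phosphatase that acts on CDKs, had 52.5 and 19.1 CPM after anti-PD-L1, against 22.2, 21.7 and 19.2 CPM after Control IgG, a fold change of 0.77 ± 0.42 (SE). Gsg2, the histone kinase haspin, had -0.54 ± 0.36 (SE). Rbl2, the pocket protein p130 of the repressive DREAM complex, stood at 94.1 and 58.1 CPM, against 15.4, 51.8 and 49.1 CPM, a fold change of 0.97 ± 0.49 (SE) with both anti-PD-L1 pools above all controls. Tfdp1, the dimer partner of E2F factors, lay below all controls, at 122 and 95.9 CPM against 190, 129 and 143 CPM, with -0.50 ± 0.27 (SE). Cenpn, a centromere protein, had -0.88 ± 0.44 (SE), Nsl1 of the MIS12 complex -0.59 ± 0.39 (SE), the centriole protein Cenpj -0.56 ± 0.34 (SE) and Anapc16 -0.49 ± 0.27 (SE), each among the 8 with both anti-PD-L1 pools below all controls. Haus1, Smc1a, Wapal and Anapc11 overlapped between groups, at -0.52 ± 0.34, -0.58 ± 0.35, -0.49 ± 0.47 and 0.44 ± 0.33 (SE). All had an edgeR adjusted p of 0.9999.

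S phase genes, which act before G2 in the cycle, were read beside the set. Of 36 DNA replication genes, 0 passed the test and 0 had an unadjusted p under 0.05. The median fold change was -0.24, with 34 below 0, where 51.9% of all genes were. Relative to the control mean in log2 CPM, the median gene lay at 0.01 and -0.46 in anti-PD-L1 replicates 1 and 2. In Control IgG replicates 1, 2 and 3 it lay at 0.24, -0.18 and 0.05. Both anti-PD-L1 pools lay below all controls for 7 of the 36, against 9.58% of all genes, and above all controls for 0, against 7.74%. Between the libraries numbered 1, 11 of the 36 were higher after anti-PD-L1, with a median of -0.19, where 31 of 32 were and the median was 0.65 in the G2 and mitosis set, and 48.3% of all genes were higher. Anti-PD-L1 replicate 2 was below the controls numbered 2 and 3 for all 36, against 48.6% of all genes, with a median of -0.39, the same median as in the G2 and mitosis set. The difference between these groups of genes was not tested. As a ratio of summed CPM, G2 and mitosis over S phase genes gave 0.730 and 0.629 in the anti-PD-L1 libraries and 0.434, 0.699 and 0.595 in the Control IgG libraries, so the low value was that of Control IgG replicate 1 and the groups overlapped. Gins1 and Cdc45, both of the replicative helicase, were the S phase genes of smallest p, at -0.72 ± 0.34 and -0.48 ± 0.25 (SE), both among the 7 genes below all controls.

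Per length, Cenpa had the highest level of the set, at 162 ± 28.8 CPM per kilobase of longest coding transcript (SD over 5 libraries), followed by Ccnb2 at 118 ± 35.8 and Cdc20 at 108 ± 29.5. This order depends on how length is defined. Cenpa has 1466 bases in that transcript but 5860 over all annotated exons, while Ccnb2 has 1531 by either measure. Library by library, Ccnb2 was above Cdc20 except in Control IgG replicate 3, at 108 against 119 CPM per kilobase, and the difference was not tested. Anln, Foxm1 and Cenpf were the lowest, at 4.10 ± 0.597, 4.84 ± 1.85 and 5.20 ± 1.66 CPM per kilobase. Mki67 ranged from 3.30 CPM per kilobase in Control IgG replicate 1 to 40.6 in Control IgG replicate 2, or 12.3-fold, the widest range of the set, so a mean over the libraries describes it poorly. Spag5 with 3.63-fold and Bub1 with 3.47-fold came next.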

How the data were processed

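Libraries of poly(A) RNA were made with a modified Smart-seq2 protocol of 8 pre-amplification and 12 library PCR cycles, per the labels' protocols. The authors deposited whole-number read counts per gene symbol, not normalized; TopHat, HTSeq and build mm10 are named per the submitters' processing notes, while their versions, the annotation, the strand setting and the handling of multi-mapping reads are not stated in these sources. Counter lines that name no gene entered neither library sizes nor tests, and reads assigned to no feature were 7.46% to 15.2%. PCR copies count as reads, so intervals cover counting error only. A floor of 3 counts lay between 0.234 and 0.300 CPM.

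Groups and replicate numbers came from the labels. The 3 Control IgG and 2 anti-PD-L1 libraries were compared with edgeR 4.0.16 in R 4.3.3, using the two-sided quasi-likelihood F-test on the deposited counts, TMM scaling, filterByExpr (minimum count 10, minimum total 15) and Benjamini-Hochberg adjustment over the 11299 genes tested, with a threshold of 0.05. The SE is the log2 fold change divided by the square root of F. Log2 CPM used a prior count of 2, and marker sums were scaled by library totals. No pair of libraries agreed within sampling noise (chi-square per degree of freedom 19.2 to 92.3). DESeq2 1.42.0, limma-voom 3.58.1, other scalings, no filter, replicate blocks and left-out libraries were alternatives. The code was tested on simulated data.

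Lengths and coordinates are from GENCODE vM21 (GRCm38), and promoters from RefSeq (GRCm38.p6). The set and all lists were chosen with earlier results of these data known. All 32 genes are named, and of each pathway list the 2 tested genes of smallest edgeR p. Of 184 pathway symbols, 6 matched no listed gene.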

Additional observations from a re-analysis of the deposited data

How the results depend on the processing

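Of 14 alternatives, those that kept both anti-PD-L1 libraries all gave the same count of 0 of the 32 genes past the threshold. Of these, edgeR with no filter on low counts had 1 of the 32 at an unadjusted p under 0.05, against 431 of 15088 genes. The others had 0. Where 1 anti-PD-L1 library was left, the spread came from the controls alone, and that library is assumed to vary like them. No counts at an unadjusted p are given for those fits. Over all genes, 5 were called by edgeR with no filter and 4 by DESeq2, which also ran without it. The other alternatives with both anti-PD-L1 libraries called 0. The median fold change of the 32 genes ranged from -0.41 to 0.48 as single libraries were left out, with the lowest value when the first anti-PD-L1 pool was dropped and the highest when the second was, was -0.42 without both libraries numbered 1, and lay between 0.05 and 0.14 in the other alternatives. None of the 32 genes passed the threshold in these fits, so each change of sign given here is that of an uncalled log2 fold change, and its cause was not tested. The sign turned under RLE normalization for Plk1 0.00 and Mad2l1 0.01. The sign turned under upper quartile normalization for Foxm1 0.00 and Mad2l1 0.02. The sign turned under scaling by library totals for Tacc3 -0.01. The sign turned under DESeq2 for Plk1 0.00 and Mad2l1 0.01. The sign turned under limma-voom for Foxm1 0.15, Tacc3 -0.03 and Spag5 0.08. Deviations from the group means correlated at 0.33 between the libraries numbered 1 and at 0.37 between those numbered 2. With 2 anti-PD-L1 libraries, the deviation of replicate 2 is that of replicate 1 with its sign turned. The 2 correlations are therefore not independent and cannot show that same-numbered libraries belong together. No label says that a number marks a batch, so the libraries share only a number. With the replicate number as a block, 0 genes were called and the median of the 32 genes was 0.14, with other signs for Aurkb 0.07, Plk1 0.10, Foxm1 0.40, Kif20a 0.11, Spag5 0.57, Cenpf 0.14, Birc5 -0.01 and Mki67 0.21. A block that sets the libraries numbered 1 against the rest, also with 0 calls, gave a median of 0.07 and other signs for Ccna2 -0.09, Foxm1 0.34, Tacc3 -0.07, Spag5 0.20, Cenpe 0.04, Cenpf 0.08, Birc5 -0.05 and Mki67 0.27. Without both libraries numbered 1 the sign turned for Cdk1 -0.55, Aurka -0.66, Bub1 -0.28, Bub1b -0.43, Ttk -0.56, Ccna2 -0.47, Ccnb1 -0.48, Ccnb2 -0.37, Kif11 -0.08, Tpx2 -0.61, Nusap1 -0.41, Hmmr -0.40, Tacc3 -0.58, Ndc80 -0.05, Birc5 -0.55, Ube2c -0.41, Cdc20 -0.53 and Top2a -0.30. Leaving out single libraries turned the sign of 29 genes, with ranges of Bub1b -0.27 to 0.47, Mad2l1 -0.59 to 0.44, Top2a -0.12 to 0.37, Ccna2 -0.54 to 0.55, Foxm1 -0.39 to 0.24, Kif11 -0.12 to 0.22, Cenpe -0.64 to 0.14, Cenpf -0.46 to 0.07, Mki67 -1.71 to 0.19, Aurkb -0.47 to 0.35, Plk1 -0.62 to 0.43, Kif20a -0.93 to 0.52, Kif23 -0.52 to 0.25, Spag5 -0.44 to 0.51, Cdk1 -0.51 to 0.64, Aurka -0.54 to 0.90, Bub1 -0.13 to 1.50, Ttk -0.52 to 1.08, Ccnb1 -0.43 to 0.88, Ccnb2 -0.40 to 0.73, Tpx2 -0.46 to 0.67, Nusap1 -0.46 to 1.12, Hmmr -0.37 to 0.83, Tacc3 -0.52 to 0.49, Ndc80 -0.01 to 0.42, Birc5 -0.53 to 0.59, Ube2c -0.38 to 0.64, Cdc20 -0.42 to 0.60 and Cdca8 -0.48 to 0.19. Cks2, Anln and Cenpa had the same sign in all 14 alternatives. The gap between long and shorter genes of the set kept its sign, but its size moved with the definition of length. In Control IgG it was -0.25 with a split at 3000 bases, -1.15 at 5000 bases and -0.03 with the length of all exons, and in anti-PD-L1 it was -0.27 at 3000 bases and -0.29 with the length of all exons. The other 3 checks, chosen after the data were seen, gave -0.81 and -0.52 in anti-PD-L1 and Control IgG by coding length, -0.80 and -0.49 without Mad2l1, and -0.70 and -0.35 without Mki67. With 2 pools against 3 and a median standard error of 0.38, small differences were not detectable. In counts simulated at the spread that edgeR estimated here, its test called 17.9% of 67 genes changed 2-fold, so most such changes were missed. It called 83.6% of 67 genes changed 4-fold.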

Other observations

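Ratios of TMM-scaled levels within a library were computed for 12 pairs of genes, and the highest ratio over the 5 libraries was 1.25 to 8.04 times the lowest, with no clear break below 1.91. The 4 pairs given here were chosen after their values were seen, and the other 8 ranged from 1.25 to 1.91. The ratio of Ube2c to Cdc20, the enzyme and the activator of the anaphase-promoting complex, was 0.832 and 0.835 in the anti-PD-L1 libraries and 0.905, 0.847 and 0.704 in the Control IgG libraries. That of Ccnb1 to Cdk1 was 1.05 and 0.948 after anti-PD-L1 and 0.888, 0.821 and 0.980 after Control IgG. The highest ratio was 1.29 and 1.28 times the lowest. The ratio of Bub1 to its paralog Bub1b was 1.04 and 0.557 after anti-PD-L1, with 0.514, 0.625 and 0.433 in the controls, highest in anti-PD-L1 replicate 1 and 2.40 times the lowest. The ratio of Mki67 to Top2a was 0.161 and 0.835 after anti-PD-L1 and 0.129, 1.03 and 0.687 after Control IgG, low in both libraries numbered 1 and with the range of 8.04. These ratios carry no test.

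The order of the 32 genes by level per kilobase was alike in all libraries, with rank correlations between pairs of libraries of 0.91 to 0.99 over 32 genes. Anti-PD-L1 replicate 1 was most like Control IgG replicate 1, at 0.97, and anti-PD-L1 replicate 2 most like Control IgG replicate 2, at 0.99. Genes share a library, and their mean levels spanned 4.10 to 162 CPM per kilobase. No correlations over other genes were set beside these values, so they are descriptions.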
